A study of Mus musculus with 6 samples.

Results

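Genes for the fast and slow versions of myosin heavy chain and of the 3 troponin subunits were followed by RNA sequencing in the inguinal fat pad (iWAT), a subcutaneous white adipose depot, of mice on a high-fat diet. They were picked by name from the table, where all 10 of 10 were present among 15176 genes. The fast members were Myh1, Myh2, Myh4, Tnnc2, Tnni2 and Tnnt3, and the slow members were Myh7, Tnnc1, Tnni1 and Tnnt1. The study compared 4 libraries from Steap4f/f mice (replicates 1, 2, 5 and 6), which carry the floxed allele of the metalloreductase gene Steap4 and are titled as wild type, with 2 libraries from Steap4AKO mice (replicates 2 and 3), in which Steap4 was deleted in adipocytes. Both groups received the high-fat diet. The Cre line, the age of the mice and whether each library came from its own mouse are not given in the sources used here, so that any spread between libraries may be technical. The genes were chosen after differences among these libraries, both within Steap4f/f and between the genotypes, had been seen, and their values are therefore given as a description.

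Striated muscle contracts when myosin motors on the thick filament pull on actin in the thin filament. Troponin sits on the thin filament and switches this on with calcium: troponin C binds the calcium, troponin I holds the filament in the off state, and troponin T ties the complex to tropomyosin. Mammals make each of these proteins from separate genes in fast and slow fibres. Myh7 marks slow oxidative fibres, Myh2 marks fast oxidative IIa fibres, Myh1 marks IIx fibres and Myh4 marks the fast glycolytic IIb fibres that dominate most mouse limb and trunk muscles. White adipocytes contain no sarcomeres.

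The start regions of 6 members are shown because the 4 slow genes, on 3 chromosomes, were high in the same library, and because Myh1 and Myh4 are neighbours on chromosome 11 whose levels parted. Each line holds the 250 bases before a start site in RefSeq (GRCm38.p6), read 5′ to 3′ on the strand of the gene, and 8 of the 10 members had an entry. Myh7 and Tnni1 each had a second entry, which is not shown. Tnni2 and Tnnt3 had none. Capitals mark matches, on either strand, to the E-box CANNTG bound by myogenic factors, to MCAT (CATTCC, bound by TEAD factors), to TATAAA and to the MEF2 consensus.
Myh7, chr14:54994627-54994876, minus strand: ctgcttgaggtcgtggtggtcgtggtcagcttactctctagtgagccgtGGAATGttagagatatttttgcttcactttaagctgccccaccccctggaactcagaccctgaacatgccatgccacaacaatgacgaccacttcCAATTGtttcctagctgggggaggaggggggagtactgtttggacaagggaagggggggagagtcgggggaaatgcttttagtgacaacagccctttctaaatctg
Tnni1, chr1:135799171-135799420, plus strand: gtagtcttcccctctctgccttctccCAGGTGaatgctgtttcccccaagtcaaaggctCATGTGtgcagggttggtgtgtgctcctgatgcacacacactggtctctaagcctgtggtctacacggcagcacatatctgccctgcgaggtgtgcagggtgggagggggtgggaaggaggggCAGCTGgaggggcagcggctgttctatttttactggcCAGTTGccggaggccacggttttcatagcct
Tnnc1, chr14:31208062-31208311, plus strand: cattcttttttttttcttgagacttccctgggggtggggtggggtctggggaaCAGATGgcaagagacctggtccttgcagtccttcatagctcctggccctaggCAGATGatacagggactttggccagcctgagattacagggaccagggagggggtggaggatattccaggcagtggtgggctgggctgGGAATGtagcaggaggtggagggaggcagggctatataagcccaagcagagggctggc
Tnnt1, chr7:4515976-4516225, minus strand: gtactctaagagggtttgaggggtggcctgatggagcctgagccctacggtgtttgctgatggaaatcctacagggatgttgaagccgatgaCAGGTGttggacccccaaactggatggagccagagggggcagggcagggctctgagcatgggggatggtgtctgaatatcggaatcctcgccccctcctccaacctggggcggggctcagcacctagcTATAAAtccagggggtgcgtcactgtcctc
Myh1, chr11:67199852-67200101, plus strand: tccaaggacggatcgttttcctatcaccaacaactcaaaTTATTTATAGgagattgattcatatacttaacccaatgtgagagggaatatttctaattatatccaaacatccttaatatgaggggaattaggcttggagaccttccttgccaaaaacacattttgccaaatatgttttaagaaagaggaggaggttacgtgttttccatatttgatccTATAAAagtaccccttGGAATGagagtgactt
Myh4, chr11:67237562-67237811, plus strand: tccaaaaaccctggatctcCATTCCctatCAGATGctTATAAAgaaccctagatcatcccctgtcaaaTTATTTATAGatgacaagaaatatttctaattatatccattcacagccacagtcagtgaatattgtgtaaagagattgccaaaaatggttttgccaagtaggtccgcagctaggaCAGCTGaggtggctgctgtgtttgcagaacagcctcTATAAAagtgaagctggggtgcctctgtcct
An E-box was found in the windows of all 4 slow genes and of Myh4, and 66.2% of 32851 RefSeq start windows of this length held one. MCAT was found before Myh7, Tnnc1, Myh1 and Myh4 (12.6% of all windows). The second Myh7 entry held no MCAT match, and the second Tnni1 entry held 2 E-boxes rather than 4. Of the members with an entry but not shown, Tnnc2 held E-boxes only and Myh2 held none of these motifs. The MEF2 consensus was found before Myh1 and Myh4 (2.92% of all windows) in the same letters, ttatttatag, beginning at -211 and -182, where it overlaps a TATAAA match on the other strand. TATAAA also began at -32 before Myh1, at -31 before Myh4 and at -30 before Tnnt1, and 12.4% of all windows held it. These matches describe the letters only.

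The adipocyte markers Adipoq, Plin1, Fabp4, Lep, Cidec and Lipe were present in every library, with summed values of 273879 to 418390. Steap4 itself ranged from 8310 to 17018 in Steap4f/f, and the Steap4AKO libraries had 8313 and 8014, so that its level does not check the genotype labels. Steap4AKO replicate 2 stood apart from the other libraries: 1080 genes were more than 2-fold above every other library, against 20 to 148 in the other libraries. It was also the shallowest by a rough estimate, at about 11600000 reads against 15900000 to 19400000. That estimate is weakest for this library, where 35.3% of low values came close to a whole number of reads. Of the heart markers, Myl4 was present at 122 to 361 in every library, and Tnni3 and Tnnt2, the cardiac troponins I and T, reached at most 41.6 and 34.6. Of the keratinocyte markers, Krt10 lay between 26.5 and 39.2 and Krt14 reached at most 38.5. The calcium channel Ryr2, a further heart marker, lay between 14.2 and 132. The other heart and keratinocyte markers had no row among the 15176 genes and could not be analysed.

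Of the 6 fast isoforms, 4 (Myh4, Tnnt3, Tnni2 and Tnnc2) were abundant in every Steap4f/f library and had the same lowest library. Myh4, the IIb myosin, had normalized values of 42908, 179960, 157641 and 203597 in Steap4f/f replicates 1, 2, 5 and 6. Tnnt3, fast troponin T, had 9598, 42001, 30249 and 40360. Replicate 1 was the lowest for both, and the other 3 libraries lay close together. Tnni2, fast troponin I, had 4493, 20129, 13759 and 20064, and Tnnc2, fast troponin C, had 4298, 17572, 13984 and 15877. The highest library was 4.74-fold, 4.38-fold, 4.48-fold and 4.09-fold above the lowest for Myh4, Tnnt3, Tnni2 and Tnnc2.

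The other fast myosins did not follow them. Myh1, the IIx myosin, had 3516, 3159, 2161 and 32068 in replicates 1, 2, 5 and 6, so that replicate 6 was 9.12-fold above the next library. Myh2, the IIa myosin, had 27.8, 2974, 312 and 8096, a range of 291-fold with no 2 libraries close. Replicate 1, the lowest library for Myh2, was the second highest for Myh1.

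**Figure D1:**
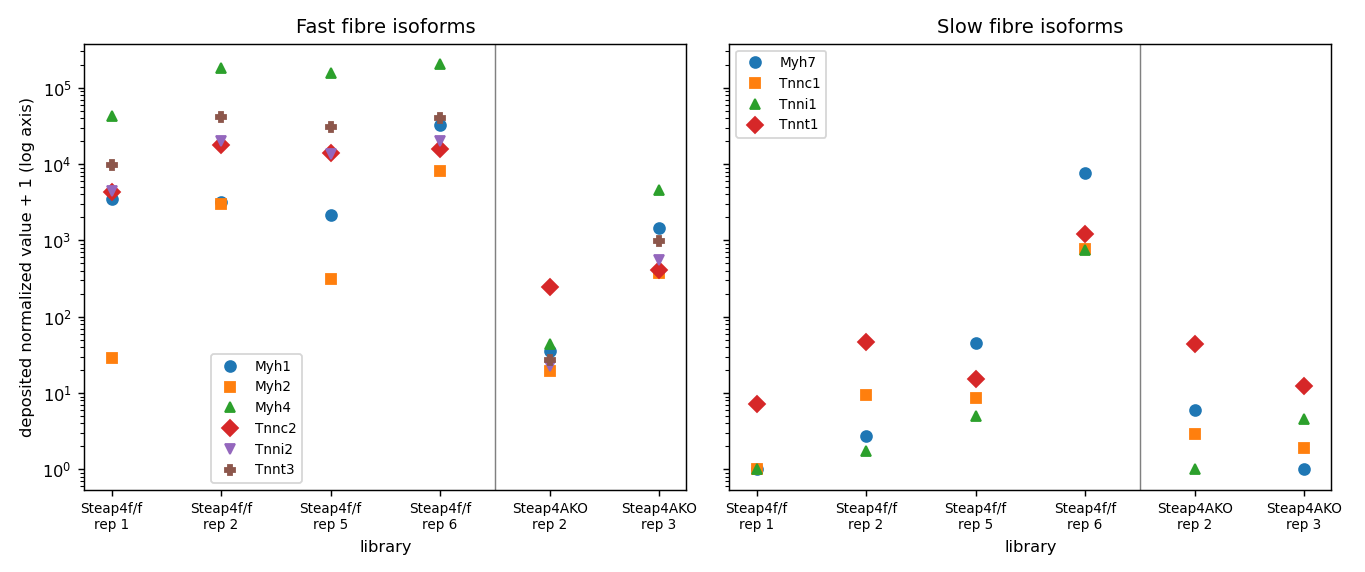
Deposited normalized value plus 1 (log axis) of each fast (left) and slow (right) member in the 4 Steap4f/f and 2 Steap4AKO libraries, 1 point per gene and library. The 4 slow members stand at 759 to 7620 in Steap4f/f replicate 6 and at or below 45.3 in every other library.

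Slow isoforms were found at a substantial level in 1 library only, Steap4f/f replicate 6. Myh7, the slow myosin, was listed at 0 in replicate 1 and had 1.76, 44.5 and 7620 in replicates 2, 5 and 6. Tnni1, slow troponin I, was listed at 0 in replicate 1 and had 0.729, 4.01 and 759. Tnnc1, troponin C of slow and cardiac muscle, was listed at 0 in replicate 1 and had 8.42, 7.55 and 767. Tnnt1, slow troponin T, had 6.20, 45.3, 14.2 and 1221. Replicate 6 was 171-fold, 189-fold, 91.2-fold and 27.0-fold above the next Steap4f/f library for Myh7, Tnni1, Tnnc1 and Tnnt1 (44.5, 4.01, 8.42 and 45.3). The value of 1 read was put at about 0.99 to 1.43 by a rough estimate, as reads were not recovered. By that estimate the folds of Tnni1 and Tnnc1 rest on few reads. In the Steap4AKO libraries, replicates 2 and 3, Myh7 had 4.94 and 0, Tnni1 0 and 3.60, Tnnc1 1.93 and 0.915, and Tnnt1 42.7 and 11.3.

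Of the 10 members 5, Myh7, Tnnc1, Tnni1, Tnnt1 and Myh1, were more than 4-fold higher in Steap4f/f replicate 6 than in each other Steap4f/f library, where 69 of the 15006 genes tested (0.46%) were. For the other 3 Steap4f/f libraries this share of all genes was 0.38%, 0.253% and 0.227%, and no member was among those genes. Tnnc1 and Tnni1 reached the mean of 10 needed for testing only through replicate 6. The members were also chosen with this difference known, and nothing is read from their count. Adipocyte markers in replicate 6 summed to 373776, against 380233 to 418390 in the other Steap4f/f libraries.

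Ratios of fast to slow isoforms were formed within each library from values per kilobase of the longest coding transcript, so that genes of different length can be set side by side. In Steap4f/f replicate 6 the 4 proteins gave similar ratios: 33.1 for myosin heavy chain (Myh1, Myh2 and Myh4 together over Myh7), 21.3 for troponin C, 39.6 for troponin I and 32.4 for troponin T. The slow isoform thus made up 2.94%, 4.48%, 2.47% and 2.99% of the transcripts of these 4 proteins.

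In the other Steap4f/f libraries the ratios were far higher. For troponin T, the pair with a value above 0 on both sides in each library, the ratio was 1520, 910 and 2086 in replicates 1, 2 and 5. Troponin C had 2150 and 1908 in replicates 2 and 5, troponin I 41365 and 5134, and myosin heavy chain 109659 and 3723. No ratio was formed for these 3 proteins in replicate 1, where the slow isoform was listed at 0, and those of replicate 2 for myosin and troponin I rest on slow values of 1.76 and 0.729. The slow share in these 3 libraries was at most 0.110% for troponin T, 0.0524% for troponin C, 0.0269% for myosin and 0.0195% for troponin I. Over Steap4f/f the log2 ratio was 9.11 ± 2.77 (SD, n = 4) for troponin T, 8.79 ± 3.79 (SD, n = 3) for troponin C, 11.0 ± 5.15 (SD, n = 3) for troponin I and 11.2 ± 5.87 (SD, n = 3) for myosin. Without replicate 6 the mean for troponin T was 10.48 with an SD of 0.604 (n = 3). For the other proteins only replicates 2 and 5 then gave a ratio (n = 2). Their means were 10.98 with an SD of 0.122 for troponin C, 13.83 with an SD of 2.13 for troponin I and 14.30 with an SD of 3.45 for myosin.

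**Figure D2:**
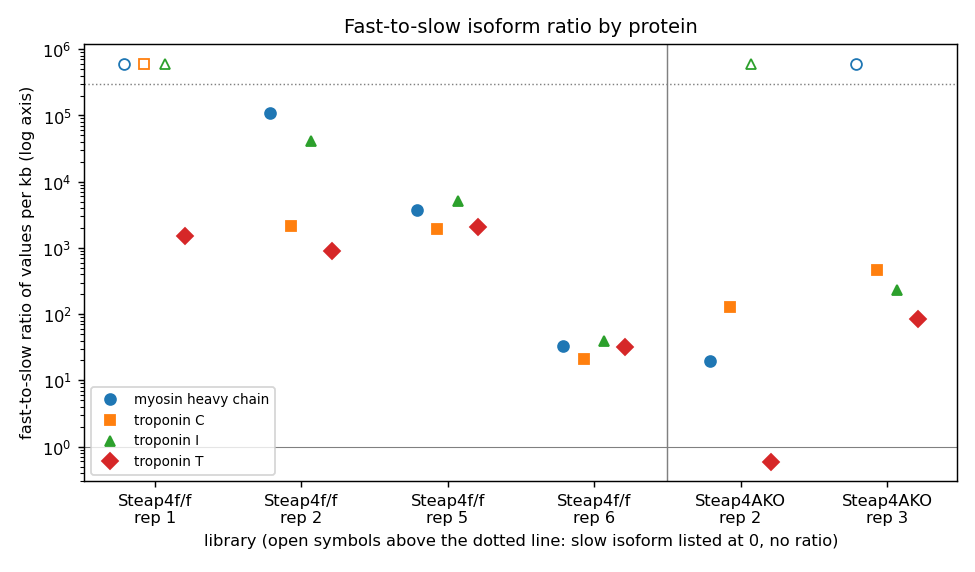
Ratio of fast to slow isoform, from values per kilobase (log axis), for each protein and library. Open symbols above the dotted line mark libraries whose slow isoform was listed at 0. The 4 proteins lie at 21.3 to 39.6 in Steap4f/f replicate 6 and at 910 or above in the other Steap4f/f libraries with a ratio.

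The ratios in Steap4AKO rested on few transcripts. In replicate 3 they were 457 for troponin C, 231 for troponin I and 83.9 for troponin T, with slow values of 0.915, 3.60 and 11.3, and Myh7 was listed at 0. In replicate 2 they were 19.9 for myosin, 130 for troponin C and 0.593 for troponin T, with Tnni1 listed at 0. Troponin T was the 1 pair in any library whose slow isoform exceeded the fast one, with Tnnt1 at 42.7 and Tnnt3 at 25.8. Tnnt1 was about as high in Steap4AKO replicate 2 as in Steap4f/f replicate 2 (45.3), although fast Tnnt3 stood at 42001 in the latter.

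Within the myosins, Myh4 made up most of the transcripts in every library but Steap4AKO replicate 2. As a share of the 4 adult isoforms, per kilobase, it was 92.4%, 96.7%, 98.4% and 81.2% in Steap4f/f replicates 1, 2, 5 and 6, compared with 43.2% and 71.9% in Steap4AKO replicates 2 and 3. Myh1 took 7.49%, 1.68%, 1.34% and 12.7% in Steap4f/f, against 33.8% and 22.3% in Steap4AKO. Myh2 took 0.0593%, 1.58%, 0.193% and 3.19% in Steap4f/f, against 18.2% and 5.85% in Steap4AKO. The Myh1 and Myh2 shares in each Steap4AKO library exceeded those of all 4 Steap4f/f libraries, and the Myh4 share was lower. The 4 genes together came to only 16.6 per kilobase in Steap4AKO replicate 2, against 1061 in replicate 3 and 7715 to 41670 in Steap4f/f, so that the shares of that library are the least precise.

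**Figure D3:**
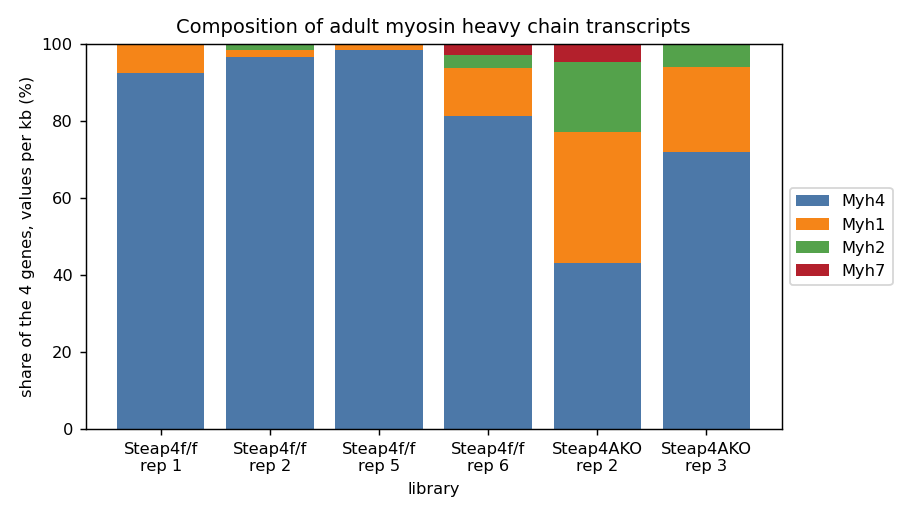
Share (%) of Myh4, Myh1, Myh2 and Myh7 in the sum of the 4 genes, from values per kilobase, as stacked bars for each library. Myh4 falls from 98.4% in Steap4f/f replicate 5 to 81.2% in replicate 6 and is at 71.9% and 43.2% in Steap4AKO.

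The amount of muscle RNA differed between libraries as well, and the members were therefore set against 12 muscle genes that fast and slow fibres share, such as Acta1 (skeletal actin), Ckm (muscle creatine kinase), Tcap (telethonin) and Mb (myoglobin). The mean log2(value + 1) level of these 12 genes, centred on Steap4f/f, was -1.54, 0.54, -0.28 and 1.28 in Steap4f/f replicates 1, 2, 5 and 6, compared with -7.06 and -3.87 in Steap4AKO replicates 2 and 3. On this scale Myh4 minus the 12-gene mean was 4.34, 4.33, 4.96 and 3.76 in Steap4f/f, and Tnnt3 minus that mean was 2.18, 2.23, 2.58 and 1.42. Within Steap4f/f both were thus lowest relative to shared muscle genes in replicate 6, where they were among the highest in level. The shared genes were not evenly higher in that library: Mb was 3.65-fold and Ckm 1.21-fold above the next Steap4f/f library. The relative level of Myh4 and Tnnt3 there therefore also depends on which shared genes are used.

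Within Steap4f/f, slow isoforms remained highest in replicate 6 after this subtraction. Myh7 minus the 12-gene mean was -11.05, -11.67, -6.80 and -0.98 in Steap4f/f replicates 1, 2, 5 and 6, and Tnnc1 minus that mean was -11.05, -9.90, -9.21 and -4.29. Tnni1 gave -11.05, -12.34, -9.98 and -4.31, and Tnnt1 gave -8.20, -7.60, -8.38 and -3.62. The values of replicate 1 for Myh7, Tnnc1 and Tnni1 are set by the pseudocount of 1, since these genes were listed at 0 there. Myh1 was at 0.73, -1.50, -1.23 and 1.09 and Myh2 at -6.20, -1.59, -4.02 and -0.89, so that replicate 6 was the highest Steap4f/f library for both, although Myh1 in replicate 1 came close to it.

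Relative to shared muscle genes, the Steap4AKO libraries differed from each other. The shared genes themselves did not move together there: Myom1 had 367 and 398 in Steap4AKO replicates 2 and 3, and Xirp2 had 1.42 and 169. Their mean is therefore an uneven measure of muscle RNA in these libraries. In Steap4AKO replicate 3 Myh4 was at 3.44, Tnnt3 at 1.20, Tnni2 at 0.39 and Tnnc2 at -0.05, each below the lowest Steap4f/f value of that gene (3.76, 1.42, 0.42 and 0.08), while Myh1 at 1.77 was above every Steap4f/f library. In Steap4AKO replicate 2 Myh4 was at -0.06 and Tnnc2 at 2.41, the highest of any library. Among the slow members, Tnnt1 at -0.08 and Tnnc1 at -3.97 in Steap4AKO replicate 2 were above Steap4f/f replicate 6, while Myh7 at -2.96 and Tnni1 at -5.53 were below it, and Steap4AKO replicate 3 was below Steap4f/f replicate 6 for all 4. The 2 higher levels rest on values of 42.7 and 1.93. The Ube2c gene overlaps Tnnc2 on the opposite strand, and its value was 189.9 in Steap4AKO replicate 2 and 71.1 to 114 in the other libraries. Without a known strand setting, reads of Tnnc2 (245 in that library) and Ube2c cannot be told apart where the genes overlap.

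**Figure D4:**
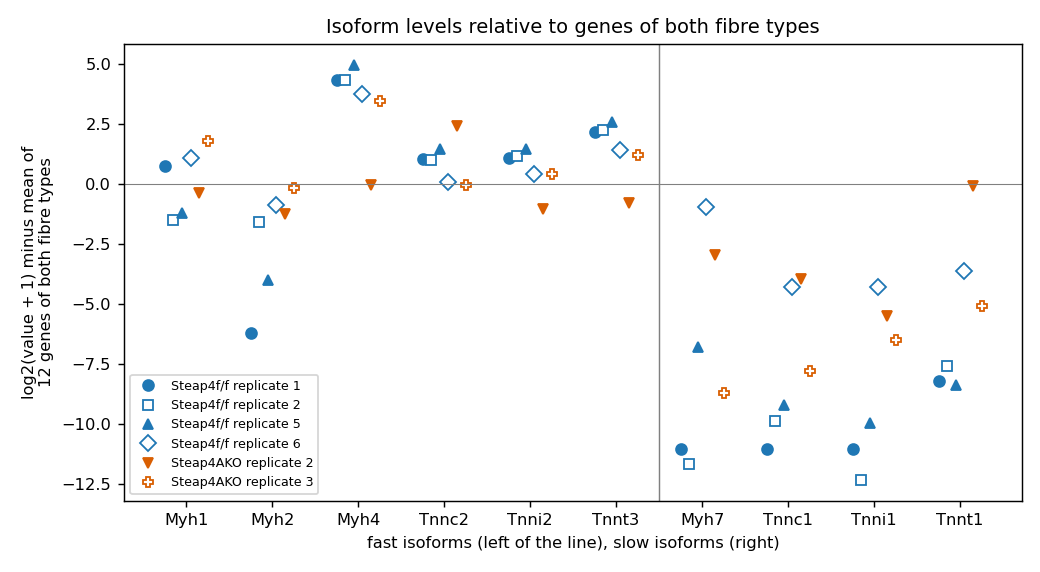
Log2(value + 1) of each member minus the mean log2(value + 1) of 12 genes of both fibre types, 1 point per library, Steap4f/f in blue and Steap4AKO in orange. For all 4 slow members Steap4f/f replicate 6 is the highest Steap4f/f library, at -0.98 for Myh7 and between -4.31 and -3.62 for the slow troponins.

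Part of a list of other slow fibre genes, written with earlier results of these data known, was high in the same library. Of 12 such genes, 6 were more than 4-fold above each other Steap4f/f library in replicate 6, against 0.46% of all genes tested, and none of 12 other fast fibre genes and none of the 12 shared genes were. The 6, named after their values were seen, were the slow myosin light chains Myl2 and Myl3, the calcium store protein Casq2, the Z-disc proteins Myoz2 and Csrp3 and the myosin Myh7b. Of these, Myl2, Myl3 and Myh7b reached the mean of 10 needed for testing only through replicate 6, so nothing is read from the count. Myl2 had 0, 34.2, 5.79 and 729 in Steap4f/f replicates 1, 2, 5 and 6, and Myl3 had 0, 5.42, 9.11 and 600. Mybpc1, the slow myosin-binding protein, had 981, 3384, 793 and 10575, the calcium pump Atp2a2 had 3235, 3118, 3109 and 7815, and the tropomyosin Tpm3 had 2709, 3114, 2920 and 7270. The last 2 are also made outside muscle, and replicate 6 was 2.42-fold and 2.33-fold above the next library for them. Pln, the inhibitor of Atp2a2, named after its values were seen, was lowest in replicate 6, with 29.0, 51.3, 28.5 and 26.5. Casq2 had 185 in replicate 6 and 151 in Steap4AKO replicate 2.

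The median log2 difference of replicate 6 from the median of the other Steap4f/f libraries was 3.73 over the 12 slow genes, 0.80 over the 12 fast genes, 1.32 over the 12 shared genes and 0.01 over all genes tested. Among the fast genes, replicate 6 stood 1.20-fold, 1.15-fold and 1.33-fold above the next library for the calcium pump Atp2a1, the calcium buffer Pvalb and the light chain Myl1, and the light chain Mylpf had 21140 against 14090. Among the shared genes Mb, the oxygen store of oxidative fibres, came closest to the slow genes, with 442, 1689, 396 and 6158 in Steap4f/f, 3.65-fold above the next library. Myod1, the 1 listed myogenic precursor marker with a row among the 15176 genes, had 1.116, 96.4, 24.9 and 113 in Steap4f/f replicates 1, 2, 5 and 6. The Steap4AKO libraries had 0 and 0.994. Of the other striated myosins listed, only Myh7b and Myh15 had a row. Myh15 had at most 11.2 in Steap4f/f and was at 54.02 and 1.97 in Steap4AKO replicates 2 and 3.

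**Figure D5:**
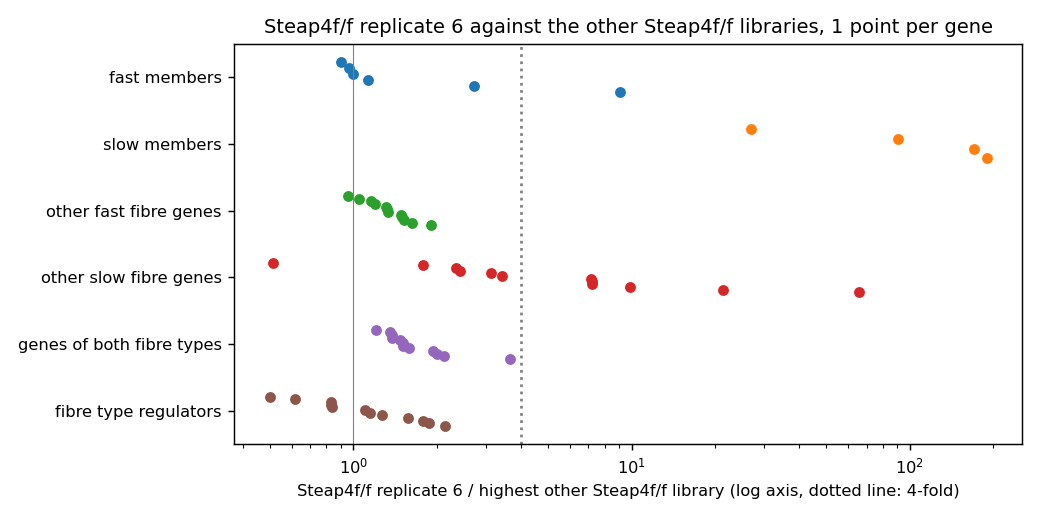
Value in Steap4f/f replicate 6 divided by the highest other Steap4f/f library (log axis), 1 point per gene, for the members and 4 gene lists. All 4 slow members and 6 of 12 other slow fibre genes lie past the dotted line at 4-fold, with 1 of 6 fast members and none of the other 3 lists.

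Profiles over the 4 Steap4f/f libraries were compared with those of 12181 genes by the mean absolute difference of centred log2(value + 1), where 0 means the same pattern. Nearest to Myh4 were Myoz1, a Z-disc protein of fast fibres (0.05), Tpm1, a tropomyosin (0.05), Pdzd7 (0.06), Jph2, a junction protein of the calcium release unit (0.07), and Pvalb (0.08). The fast troponins Tnni2, Tnnt3 and Tnnc2 were at 0.11, 0.11 and 0.12 from Myh4, while Myh1 and Myh2 were at 1.44 and 2.24. Nearest to Tnni1 were Myl3 (0.81), Myl2 (1.58), Csrp3 (1.73), Igfn1 (1.74) and Mss51 (1.78), and the member Tnnc1 was at 0.82. Myh7 had no close neighbour: Myl3 was at 1.76, Myl2 at 2.45, Gm37240 at 2.65, Pla2g4e at 2.69 and Csrp3 at 2.697, and the nearest member was Tnni1 at 1.46. Myl3, Myl2 and Csrp3 reached the mean needed for this comparison only through Steap4f/f replicate 6. Tnni1 itself had 0, 0.729 and 4.01 in replicates 1, 2 and 5. Tnni1 and Myh7 were also chosen with their replicate 6 values known. Their distances thus rest largely on the high values of that library and on the pseudocount, and nothing is read from them.

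Ordered by level per kilobase in Steap4f/f, the fast members ran from Tnnt3 (28315 ± 13813, SD, n = 4) through Myh4 (24273 ± 11845), Tnni2 (19025 ± 9606) and Tnnc2 (18476 ± 8486) to Myh1 (1682 ± 2396) and Myh2 (469 ± 615). The means of the first 4 differed by less than the larger SD of each pair, as did those of Myh1 and Myh2. Within libraries, though, the order was mostly the same. Tnnt3 was above Myh4, Myh4 above both Tnni2 and Tnnc2, and Myh1 above Myh2 in 4 of 4 libraries, while Tnni2 and Tnnc2 changed places. This order depends on the length used. Over all exons Tnnt3 has 1583 bases rather than 1079 and Tnni2 1497 rather than 768, while Myh4 has 6016 by both. With all exons counted, Tnnt3 no longer stands above Myh4. The slow members followed at 308 ± 610 for Myh7, 304 ± 566 for Tnnt1, 272 ± 529 for Tnnc1 and 166 ± 329 for Tnni1 (SD, n = 4), each mean made up almost wholly by replicate 6.

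Fast isoforms were lower in both Steap4AKO libraries. In Steap4AKO replicates 2 and 3 Myh4 had 43.2 and 4586, Tnnt3 25.8 and 969, Tnni2 21.5 and 554, and Tnnc2 245 and 406. Group means were 63.1-fold, 61.4-fold, 50.8-fold and 39.7-fold lower than in Steap4f/f. Myh1 had 34.1 and 1436, and its mean was 13.9-fold lower. These 5 members lay below every Steap4f/f library in both Steap4AKO libraries, as did 14.4% of all genes tested. Myh2, with 18.4 and 378, overlapped Steap4f/f replicates 1 and 5. Replicate 2 was below replicate 3 for all 6 fast members, by the widest margin for Myh4.

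The slow members overlapped between the genotypes. Log2 differences in Steap4AKO, on the log2(value + 1) scale of the fit over all genes, were -3.68 (SE 3.21) for Myh7, -2.73 (SE 2.29) for Tnnc1, -2.07 (SE 2.56) for Tnni1 and -1.10 (SE 1.84) for Tnnt1. Tnnc1 and Tnni1 reached the mean of 10 needed for the fit only through Steap4f/f replicate 6, and they dropped out of the fit without it. In that fit the difference of Myh7 was -1.04 (SE 2.03), and that of Tnnt1 was 0.43 (SE 1.01), in the other direction. For the fast members they were -8.12 (SE 1.58) for Myh4, -7.36 (SE 1.26) for Tnnt3, -6.81 (SE 1.16) for Tnni2, -5.17 (SE 0.54) for Tnnc2, -4.55 (SE 1.51) for Myh1 and -2.99 (SE 2.16) for Myh2. Without Steap4AKO replicate 2 these 6 differences were -4.77, -4.77, -4.50, -4.80, -1.87 and -0.85 in the same order, and without Steap4AKO replicate 3 they were -11.47, -9.95, -9.13, -5.53, -7.23 and -5.14. One member, Tnnc2, passed the threshold of the limma fit (Benjamini-Hochberg adjusted p under 0.05), where 0.473% of all genes tested did. It no longer passed with a pseudocount of 0.5, with a filter at a mean of 50, or when Steap4f/f replicate 2, 5 or 6 or Steap4AKO replicate 2 was left out, and in each of these fits 1 gene of the table passed in place of 71. The median difference was -5.99 over the fast members, -2.40 over the slow members and 0.02 over all genes. The genes had been chosen with these differences in view, and no more is read from them. In whole tissue, fewer muscle fibres and less RNA per fibre cannot be told apart.

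The same contrast in the other lists ran alongside. All 12 other fast fibre genes and all 12 shared genes lay below every Steap4f/f library in both Steap4AKO libraries, with median log2 differences of -6.77 and -5.56, where 14.4% of all genes tested did. In limma 6 of the fast genes passed as lower (Myl1, Mybpc2, Actn3, Pvalb, Mylk2 and Eno3) and 4 of the shared genes, among them Acta1, Ckm and Cmya5, and none passed as higher. Of all genes tested, 0.433% passed as lower and 0.04% as higher, and these calls rest on the same fit, in which 71 genes became 1 under the settings named for Tnnc2. Of the 12 other slow fibre genes 2, Mybpc1 and, named after its values were seen, Myl6b, lay below every Steap4f/f library and none passed in either direction (median -1.59). The 8 skeletal muscle markers summed to 53974 to 348041 in Steap4f/f, against 1701 and 9496 in Steap4AKO replicates 2 and 3.

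Steap4AKO replicate 2, the library with the lowest fast isoforms, was the highest for 5 of the 6 smooth muscle markers: Myh11 stood at 15120 and Cnn1 at 4471, against at most 1382 and 130 in the other libraries. The Myh11 value of 1382 was that of Steap4AKO replicate 3, also above every Steap4f/f library. The sixth, Des, which skeletal fibres also make, had 3212 there, 1145 in Steap4AKO replicate 3 and 3198 to 17681 in Steap4f/f. The sum of all 6 was 40362 in Steap4AKO replicate 2, 7905 in replicate 3 and 8475 to 25953 in Steap4f/f, and that of the 5 without Des was 37150, 6760 and 5276 to 8272. Their part in the result was not tested. In Steap4AKO replicate 3 alone, Myh1, Myh4, Tnnc2, Tnni2 and Tnnt3 were below every Steap4f/f library, as were 23.4% of all genes tested.

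Among 12 regulators of fibre type, Vgll2, a muscle cofactor of TEAD factors, was the 1 gene past the limma threshold, in the same fit, and it was listed at 0 in both Steap4AKO libraries and had 64.0, 154, 20.5 and 129 in Steap4f/f. Tbx15, a factor of fast fibres and of subcutaneous fat, had 661, 1047, 759 and 1330 in Steap4f/f replicates 1, 2, 5 and 6, against 1.37 and 316 in Steap4AKO. Tead1, a TEAD factor, and Ppard, a nuclear receptor tied to oxidative fibres, overlapped between the groups at 1271 to 2377 and 707 to 1021 over all libraries. None of the 12 regulators was more than 4-fold higher in Steap4f/f replicate 6 than in each other Steap4f/f library. The median log2 difference of replicate 6 over the 12 was 0.78.

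How far the isoforms can be separated depends on their sequence. Of all 50-base windows in their GENCODE M21 transcripts, 25.4% of Myh1, 22.9% of Myh2 and 18.9% of Myh4 also occur in a transcript of another gene, and at 100 bases the shares are 9.24%, 7.80% and 3.85%. Myh1 and Myh2 share most with each other. Myh7 shares 15.6% of its 50-base windows, nearly all with the cardiac myosin Myh6, which had no row among the deposited values. The troponin members share at most 0.827% at 50 bases, so that their 3 ratios do not rest on reads divided between isoforms. Prr33, however, overlaps Tnnt3 on the opposite strand. It had 67.8 and 130 in Steap4AKO replicates 2 and 3, where Tnnt3 had 25.8 and 969. Myhas and 9430073C21Rik likewise overlap Myh1 and Myh2. Without a known strand setting, reads of these pairs cannot be told apart where the genes overlap. The sources used here do not give the read length. Myh2 (67171027 to 67197517), Myh1 (67200052 to 67224575) and Myh4 (67238029 to 67260446) lie side by side on the plus strand of chromosome 11 in GRCm38, and Myh7 lies on chromosome 14 (54970684 to 54994626, minus strand). Tnni2 (142441808 to 142444410) and Tnnt3 (142498836 to 142516009) are close together on chromosome 7, which also carries Tnnt1 (4504570 to 4516382). Tnnc2 is on chromosome 2 (164777161 to 164779967), Tnni1 on chromosome 1 (135779434 to 135810989) and Tnnc1 on chromosome 14 (31208312 to 31211729), inside the span of Nisch on the opposite strand. Nisch had 5512 to 7543 in all libraries and did not follow Tnnc1.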

How the data were processed

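The submitters' processing notes name DESeq2 1.12.4, RSEM 1.3.3, STAR 2.7.0e and R 4.2.0, with builds mm10 and GRCm38, but no order or role. The deposited table, by its name, holds counts that the authors normalized with DESeq2 (unit: signal), for 15176 genes in 6 libraries. At the best step per library, 35.3 to 59.7% of low values came within 0.1 of a whole number of reads, so reads were not recovered and no count test was run. Depth was estimated from the value of 1 read, and no counting intervals were computed. Symbols came from GENCODE M21 (51 genes had none).

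Ratios used values divided by the length of the longest coding transcript. Genes with a mean of at least 10 (15006) were fitted by limma 3.58.1 (R 4.3.3) on log2(value + 1), with a variance trend and 2 groups, and all tests were two-sided. The fit was tested on simulated data in which the spread of each gene was capped, so that test does not cover genes as variable as several of the members. Members and lists were chosen with earlier results of these data known. Named genes were the members, in each list the 4 highest per kilobase in Steap4f/f and up to 6 past the limma threshold, and the 5 nearest profiles of Myh7, Myh4 and Tnni1 among genes with a mean of at least 50 in Steap4f/f. Other genes are named after their values were seen, and for the marker lists sums and selected genes are given. Some genes that the rule named are not reported here. Alternatives were other pseudocounts, filters, scalings and lengths, and each library left out.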

Additional observations from a re-analysis of the deposited data

Results flagged for a closer look

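Dixon's test was applied to 23 sets of 4 Steap4f/f values (each member on the deposited and on the log2 scale, and 3 log2 ratios). In 7 sets the gap of 1 library to the nearest other, divided by the range of the set, exceeded the critical value for 4 samples. Chance gives about 1 in 20 such sets, and the sets share their libraries. The members were chosen with differences among these values known, so nothing is read from the number of sets. On the deposited scale Steap4f/f replicate 6 stood far above the others for Myh1 (32068), Myh7 (7620), Tnnc1 (767), Tnni1 (759) and Tnnt1 (1221). On the log2(value + 1) scale Steap4f/f replicate 1 stood far below the others for Myh4 (15.39) and Tnnc2 (12.07). Myh1 and the slow members did not pass on that scale.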

How the results depend on the processing

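The number of genes called in limma, 71, became 1 with a pseudocount of 0.5 or a filter at a mean of 50 and 112 with a pseudocount of 8, and it ran from 1 to 821 with each library left out. It was 1 when Steap4f/f replicate 2, 5 or 6, or Steap4AKO replicate 2, was left out, 238 in the absence of Steap4f/f replicate 1 and 821 in that of Steap4AKO replicate 3. Of the 71 genes, 70 had adjusted p-values between 0.0466 and 0.0492, and 2717 genes had an unadjusted p under 0.05. The call of Tnnc2 was lost under a pseudocount of 0.5 (limma adjusted p = 0.0503), a filter at 50 (0.0512) and without Steap4f/f replicate 2, 5 or 6 or Steap4AKO replicate 2 (0.123 to 0.199). Calls were gained for Tnni2 and Tnnt3 with a pseudocount of 8 (both 0.0498) and without Steap4f/f replicate 1 (0.0373 and 0.0424), and without Steap4AKO replicate 3 for Myh4 (0.00803), Tnnt3 (0.0108) and Tnni2 (0.0149). Without Steap4f/f replicate 6 the log2 difference of Tnnt1 was 0.43, reversed from -1.10, and it ran from -2.04 to 0.43 with each library left out. The members' median difference ran from -5.34 to -3.65 over all settings. It covered 8 members rather than 10 without Steap4f/f replicate 6, where Tnnc1 and Tnni1 fell below the filter. The mean log2 ratios ran from 8.45 to 14.30 for myosin, 7.66 to 10.98 for troponin C, 8.82 to 13.83 for troponin I and 8.47 to 10.48 for troponin T with each Steap4f/f library left out, the highest without replicate 6. Under scaling to equal sums the median difference of all genes was 0.21, against 0.02. With each library left out, a choice made after seeing the data, 5 or 6 members lay below every Steap4f/f library. Depth limits the slow isoforms outside Steap4f/f replicate 6, which were listed at 0 to 45.3. No paired analysis was possible because the groups share 1 replicate number only.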
